A study of Mus musculus with 15 samples.

Results

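Collagen genes were examined in mouse sperm DNA, as the protein-coding genes whose symbol is Col, a type number, the letter a and a chain number. Gene spans were taken from RefSeq for GRCm38.p6 and extended by 2 kb on either side. This gave 44 of 21900 protein-coding genes. Of these, 39 held at least 1 measured CpG, 35 held the 3 or more that the gene-level comparison required, and 4 held 1 or 2 (Col5a2, Col9a3, Col1a2 and Col4a6). The other 5 genes, Col3a1, Col10a1, Col6a1, Col6a2 and Col9a2, held none. Together the collagens contributed 544 of the 204492 measured CpGs, 535 of them inside a gene span and 9 in flanks alone. 5 of the CpGs also lay in another gene or its flanks, 4 between Col17a1 and Slk and 1 between Col6a6 and Pik3r4.

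Reduced representation bisulfite sequencing was done on sperm DNA of C57BL/6 males of generation G1, of which 7 libraries carried the diet label Control and 8 the diet label PR (protein restricted). MspI cuts at CCGG, so fragments rich in CpGs are sampled, and after bisulfite treatment a cytosine that still reads as C is scored as methylated. No genotype, transgene or age is given, all libraries share strain, sex and generation, and whether the males or a parent ate the diet is not stated. Nothing in the labels ties a library to an animal or litter, so p-values describe the spread between these libraries, which may be technical in part.

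Collagens are extracellular matrix proteins built from chains that wind into a triple helix, and each gene encodes 1 chain. Fibrillar collagens form the fibres of skin, bone and cartilage, type IV chains form the network of basement membranes, and other classes decorate fibrils, form beaded filaments or cross the cell membrane. Sperm DNA is known for dense methylation across gene bodies, with CpG-rich promoters mostly free of it.

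What the measured positions leave out is visible at the promoters. RefSeq promoter windows, from 250 bases before to 50 after a gene start, were matched for 35 of the 44 genes (38 windows). Not one of these windows held a measured CpG, against 322 of 32851 windows (0.980%) over all genes. Both strands were searched for CG and for CCGG, each of which reads the same on either strand, and every CCGG holds a CG. CG was found in 35 of the 38 windows (92.1%, against 94.6% of all windows) and CCGG in 23 (60.5%, against 52.8%), with a median of 11.5 CGs per collagen window and 7 over all windows. Every measured position had at least 11 methylated reads in every library, so an unmethylated promoter and an uncovered one cannot be told apart here.

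4 promoter windows are shown because they belong to genes the results turn on, or to a gene with no measured CpG. All are from GRCm38.p6, are written 5′ to 3′ on the gene's strand, and have each CG in capitals. Col4a1 (chr8:11312777-11313076, minus strand) held 37 CGs and 6 CCGGs, the most CGs of any collagen window, and shares 78 bases with the window of Col4a2, which is read in the opposite direction and held 33 CGs. Col11a1 (chr3:114030290-114030589, plus strand) held 9 CGs, Col8a1 (chr16:57754688-57754987, minus strand) held 12, and Col3a1 (chr1:45311288-45311587, plus strand) held 0, with CCGG in none of these 3.
Col4a1: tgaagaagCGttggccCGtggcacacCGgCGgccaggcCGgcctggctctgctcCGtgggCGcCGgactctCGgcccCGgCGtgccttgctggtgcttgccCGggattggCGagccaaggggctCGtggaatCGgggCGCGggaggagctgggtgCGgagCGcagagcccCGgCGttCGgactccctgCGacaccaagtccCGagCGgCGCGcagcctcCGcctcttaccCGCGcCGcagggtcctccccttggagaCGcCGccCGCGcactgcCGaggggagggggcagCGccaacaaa
Col11a1: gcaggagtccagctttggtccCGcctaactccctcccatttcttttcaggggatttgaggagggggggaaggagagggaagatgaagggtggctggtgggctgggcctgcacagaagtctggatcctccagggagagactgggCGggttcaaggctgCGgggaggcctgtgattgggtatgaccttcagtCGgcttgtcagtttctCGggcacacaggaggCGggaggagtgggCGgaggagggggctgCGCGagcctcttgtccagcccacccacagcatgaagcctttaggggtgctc
Col8a1: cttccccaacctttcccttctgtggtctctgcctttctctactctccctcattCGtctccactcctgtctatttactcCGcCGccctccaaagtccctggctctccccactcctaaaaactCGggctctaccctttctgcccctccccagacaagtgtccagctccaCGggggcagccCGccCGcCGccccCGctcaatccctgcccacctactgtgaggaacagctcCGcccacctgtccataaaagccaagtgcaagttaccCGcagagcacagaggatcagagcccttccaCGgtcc
Col3a1: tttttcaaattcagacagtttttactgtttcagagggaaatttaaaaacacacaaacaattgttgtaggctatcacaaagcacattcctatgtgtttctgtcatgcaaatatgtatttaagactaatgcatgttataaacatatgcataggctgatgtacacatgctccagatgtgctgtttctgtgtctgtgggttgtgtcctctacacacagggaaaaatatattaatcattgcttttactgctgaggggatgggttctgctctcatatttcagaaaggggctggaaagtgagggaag
The printed windows range from no CG to the most CGs of any collagen window, and none of these CGs was measured. The other 9 genes, all with measured CpGs, had no window to check (Col1a1, Col2a1, Col4a3, Col5a2, Col9a3, Col12a1, Col14a1, Col22a1 and Col26a1).

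At the measured positions collagen genes were highly methylated. Because each such position had at least 11 methylated reads in every library, unmethylated CpGs are missing from all levels and shares given here. Partly methylated CpGs with few reads can be missing too, so shares of low CpGs hold for the measured positions only. The mean over collagen CpGs was 96.2% ± 0.259 (SD, n = 7) in Control libraries and 96.2% ± 0.172 (SD, n = 8) in PR sperm, against 96.4% in both diets over the CpGs of all protein-coding genes. Single libraries ran from 95.8% to 96.6% in Control and from 95.8% to 96.4% in PR, so the diets overlapped almost completely. A library's collagen mean lay between 0.604 points below and 0.0974 points above its own mean over all protein-coding genes. Read counts over the 544 CpGs ran from 15998 to 26076 in Control and from 14520 to 25177 in PR, with a median coverage of 26 to 44 reads per CpG. Counts over all measured CpGs ran from 6650912 to 11841657.

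Of the collagen CpGs 500 (91.9%) had a mean of 90% or more, and 4 (1 each in Col18a1, Col24a1, Col15a1 and Col6a6) were read as methylated in every read of every library. The remaining 44 were under 90% (8.09%, against 6.90% of CpGs in all protein-coding genes), 18 were under 80% (3.31% against 3.65%) and 2 were under 50% (0.368% against 0.518%). The share of collagen genes with a measured CpG was 88.6%, against 57.4% of all protein-coding genes. Collagen genes are long, with a median span of 114410 bp against 17146 bp, and of the 5067 protein-coding genes in the middle range of collagen spans 87.9% held a measured CpG. The median density was 0.718 measured CpGs per 10 kb in collagens, 0.413 in all genes and 0.913 in genes of collagen length.

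**Figure D1:**
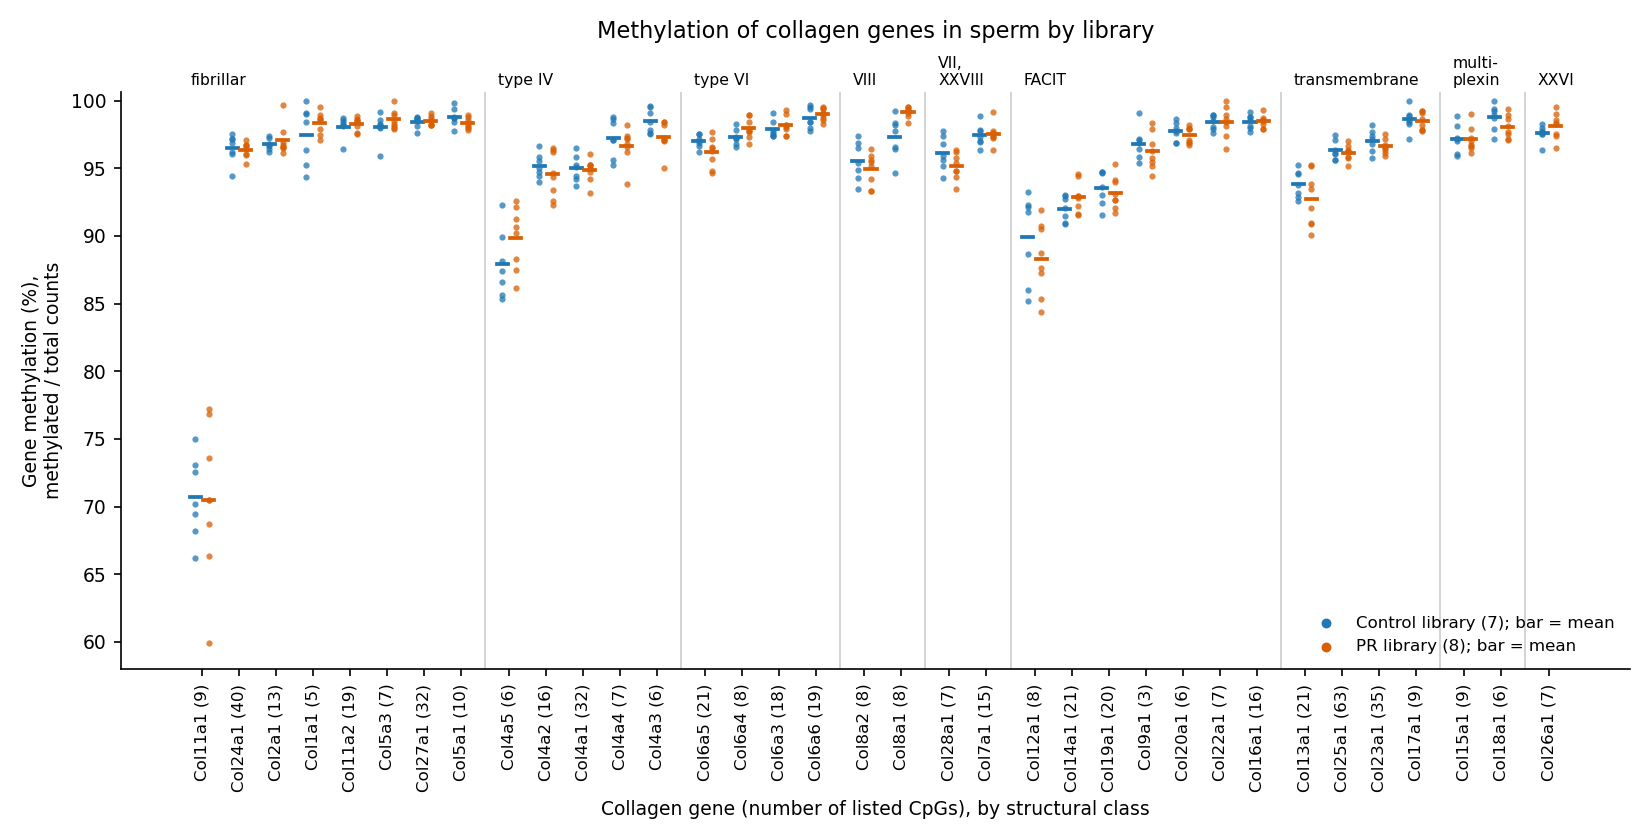
Gene methylation in percent (methylated over total counts) for the 35 collagen genes with 3 or more measured CpGs, by structural class; each point is 1 library, bars are diet means, and the vertical axis starts at 58%. Most genes sit above 95% in both diets, while Col11a1 sits near 70%, and no gene separates Control from PR.

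The plot of gene levels by class shows how far single genes departed from the family. Of the 35 genes 27 had a mean of 95% or more, 18 of 97% or more and 3 (Col11a1, Col4a5 and Col12a1) of under 90%. A mean under 90% was as common among all tested genes, at 9.35% against 8.57% of the collagens.

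Among the fibrillar collagens, 10 of 11 genes were measured, at 139 CpGs with a mean of 95.6% ± 0.427 (SD, n = 7) in Control libraries and 95.7% ± 0.368 (SD, n = 8) in PR. Col1a1, the main chain of the type I collagen of bone and skin, averaged 97.5% ± 2.17 (SD, n = 7) and 98.3% ± 0.808 (SD, n = 8) over 5 CpGs. Col2a1, the chain of cartilage fibrils, averaged 96.8% and 97.1% over 13 CpGs. Col5a1, a chain of the type V collagen found within type I fibrils, was the highest of the class at 98.5% over all libraries. Without Col11a1, which is described below, the class mean was 97.6% in both diets. Col24a1, a fibrillar chain with 40 CpGs, averaged 96.5% and 96.4%. Its variance between libraries was 3.13 times that of counting noise, with counts at neighbouring CpGs taken as independent.

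The type IV chains, which form basement membranes, had the lowest class mean when each CpG counted equally, 94.6% ± 0.560 (SD, n = 7) in Control libraries and 94.4% ± 0.708 (SD, n = 8) in PR over 68 CpGs. From pooled counts type IV stood at 95.3% in Control and 95% in PR, and the fibril-surface collagens were lower, at 94.3% in both. All 6 type IV genes were measured, and 12 of the 68 CpGs (17.6%) were under 90%. Col4a5, the X-linked chain mutated in Alport syndrome, was the lowest of them at 88.9% over 6 CpGs. Col4a1 and Col4a2, the chains of nearly all basement membranes, averaged 95% and 95.2% in Control and 94.9% and 94.5% in PR over 32 and 16 CpGs. Col4a3, a chain of the glomerular basement membrane, was the highest at 97.9% over 6 CpGs.

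Type VI collagen forms beaded filaments around cells. Its 4 measured genes (Col6a3, Col6a4, Col6a5 and Col6a6) had a mean of 97.9% ± 0.121 (SD, n = 7) in Control libraries and 97.8% ± 0.297 (SD, n = 8) in PR over 66 CpGs, with no CpG under 90%. The neighbouring genes Col6a1 and Col6a2 had no measured CpG. Because the classes are sets of genes and not samples, the order of class means is given as a description.

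The collagens that sit on fibril surfaces (FACIT and related types) had 8 of 9 genes measured and a mean of 95.6% in both diets over 83 CpGs, of which 9 were under 90%. Col12a1 and Col14a1, both bound to type I fibrils in tendon and skin, were the lowest, at 89.1% and 92.5% over all libraries. The 4 transmembrane collagens, which include Col17a1 of the hemidesmosome, had 128 CpGs with a mean of 96.9% ± 0.469 (SD, n = 7) in Control libraries and 96.7% ± 0.261 (SD, n = 8) in PR. Col25a1, a transmembrane collagen of neurons and muscle, held 63 CpGs, the most of any collagen, and averaged 96.3% and 96.2%. Col23a1, another transmembrane collagen with 35 CpGs, averaged 97% and 96.6%. The short-chain network collagens Col8a1 and Col8a2, the anchoring-fibril gene Col7a1 with Col28a1, the multiplexins Col15a1 and Col18a1 and the single gene Col26a1 had class means between 96.1% and 97.8%.

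Neighbouring CpGs were joined to describe the partly methylated positions. The 544 CpGs were joined into 228 groups with gaps of at most 300 bp, of which 152 held 2 or more CpGs and 76 held 1. A pooled mean under 90% was found in 10 of the 152 and 6 of the 76. Of the 44 CpGs under 90%, 38 (86.4%) lay in groups of 2 or more, much as 86.0% of all collagen CpGs did. 2 groups of 2 or more CpGs were under 80%, in Col11a1 and Col13a1. These groups were picked out after their values were seen. Whether the stretches lie in exons or introns was not analysed here.

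The Col11a1 group held 6 CpGs within 196 bp (chr3:114097074-114097269, GRCm38.p6), between 66595 and 66790 bases into the gene. Col11a1 encodes a minor fibrillar chain of cartilage. In Control libraries the group's level was 45.8% at the lowest, 51.1% at the median and 59.8% at the highest, with a mean of 53.0% ± 5.45 (SD, n = 7). In PR libraries it ran from 41.4% through a median of 56.2% to 64.1%, with a mean of 55.7% ± 7.06 (SD, n = 8). The ranges overlapped widely, and the highest and the lowest library both carried the PR label. Means of single CpGs over all libraries ran from 49.4% to 60.5% at a mean coverage of 39.9 reads. The 3 other CpGs of the gene averaged 94.5% in Control and 96.2% in PR.

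**Figure D2:**
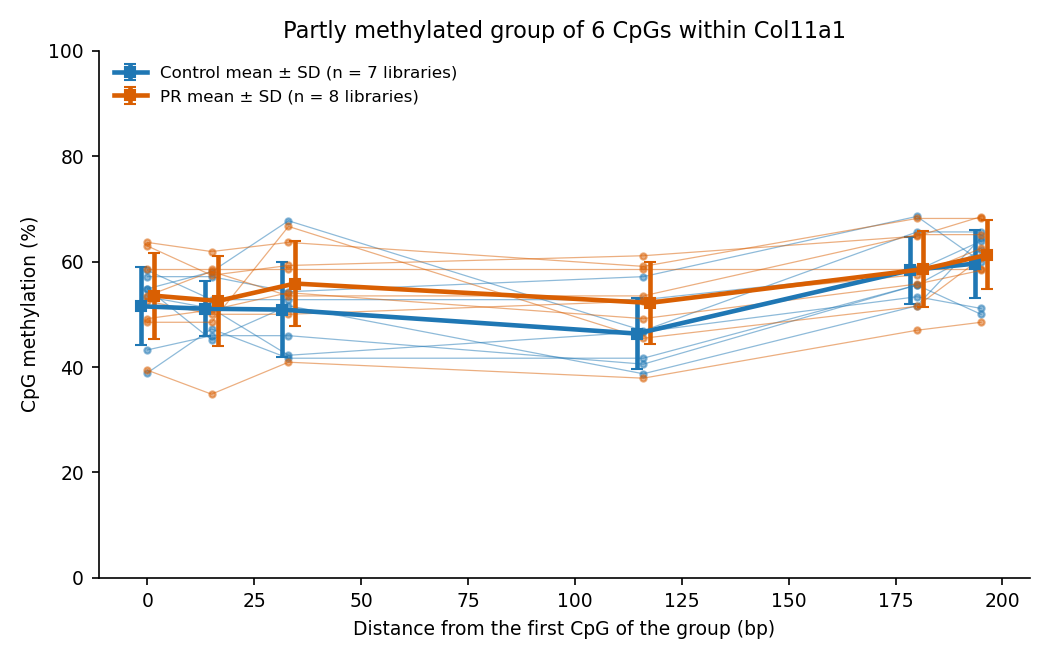
Methylation in percent of the 6 neighbouring CpGs of Col11a1 against their distance in bp from the first; thin lines are single libraries, and squares with bars are the mean ± SD of 7 Control and 8 PR libraries. All 6 positions lie near the middle of the scale in both diets, with single libraries between 41.4% and 64.1% over the group.

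The plot of the Col11a1 stretch shows all 6 positions near the middle of the scale in both diets, and positions this close can be covered by the same reads. For the whole gene the pooled level was 70.7% ± 3.04 (SD, n = 7) in Control libraries and 70.4% ± 5.70 (SD, n = 8) in PR, a difference of -0.23 points. It is lower than the levels of all but 1.03% of tested genes, and its variance between libraries, 4.50 times counting noise, was above that of 98.1% of them. Counting noise here treats counts at neighbouring CpGs as independent, so the value is not a measure of variation between libraries alone. What shared reads add to it was not tested. The sign of the gene-level difference depended on how reads were weighted. Both the group and the other 3 CpGs had higher means in PR, but the group took 57.5% ± 3.12 (SD, n = 7) of the gene's counts in Control and 63.1% ± 6.51 (SD, n = 8) in PR. With each CpG weighted equally the difference was 2.42 points.

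Sample titles carry numbers, and some libraries have consecutive ones. The Control libraries numbered 22, 23 and 24 had 59.0%, 56.5% and 59.8% at the Col11a1 group, and the other 4, numbered 1, 6, 7 and 8, had 49.6%, 45.8%, 51.1% and 48.9%. Among PR libraries those numbered 30 and 31 had 58.6% and 41.4%, and those numbered 42, 43 and 44 had 54.2%, 52.9% and 62.3%. The PR libraries numbered 35 and 36 had 64.1% and 58.1%, and number 39 had 53.5%. The PR run of 30 and 31 spread over most of the range of all libraries. Over all collagen CpGs Control libraries 22, 23 and 24 had means of 96.6%, 96.4% and 96.4%. Those numbered 1, 6, 7 and 8 had 96.2%, 96.1%, 95.8% and 96.1%, and PR libraries ran from 95.8% to 96.4%. Over all protein-coding genes the Control libraries in that order had 96.5%, 96.6% and 96.3%, then 96.3%, 96.4%, 96.2% and 96.4%. What the title numbers stand for is not stated. Each run of consecutive numbers holds 1 diet, so within a run no diet comparison can be made.

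In Col13a1, a transmembrane collagen of the neuromuscular junction, a pair of CpGs 2484 and 2500 bases into the gene (chr10:61976706-61976722) averaged 69.9% ± 5.68 (SD, n = 7) in Control libraries and 66.1% ± 6.71 (SD, n = 8) in PR. Libraries ran from 63.6% to 77.6% and from 58.5% to 77%, and the diets overlapped. In Col4a1 a group of 9 CpGs (chr8:11308856-11309097), 3792 to 4033 bases into the gene, averaged 88.3% and 87.6%, with single CpGs between 73.4% and 99.0%. Deeper in the same gene 4 CpGs (chr8:11201686-11201734) averaged 83.9% and 84.8%. In Col4a2 a group of 3 CpGs (chr8:11385699-11385734) averaged 81.2% in both diets. Its PR libraries spread from 67.1% to 93.3%.

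Single positions were also partly methylated. The lowest collagen CpG lay 1165 bases upstream of Col25a1 (chromosome 3, 130179193) at 39.8% ± 8.81 (SD, n = 7) in Control libraries and 37.1% ± 8.64 (SD, n = 8) in PR, with libraries from 27.8% to 50% and from 28.2% to 55.4%. The quasi-binomial p for its diet difference was 0.599. A CpG 3281 bases into Col19a1, a fibril-associated chain (chromosome 1, 24584641), averaged 54.5% and 50.6%. Partly methylated collagen CpGs varied more between libraries in points, with a median within-diet SD of 6.68 against 2.34 for those at 90% or more. Relative to counting noise both kinds were alike, with median dispersions of 1.03 and 0.936, where 1 is counting noise alone.

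Distance from the gene's 5′ end, taken as the edge of the RefSeq span, could be set for 473 CpGs in 30 genes, those with a strand in the promoter table. This edge can lie apart from the start used for the promoter windows. In Col6a5, on the minus strand, the span reaches 105962463 and the promoter window is chr9:105960594-105960893. Its 4 CpGs in the window from 105961001 count in the first 2 kb but lie upstream of that promoter window. Only 2 of these lay within 2 kb upstream, 3 in the first kb, 4 in the second and 19 between 2 and 5 kb. Another 80 lay between 5 and 20 kb, and 365 (77.2%) lay beyond 20 kb, against 65.3% for all genes. Between 2 and 5 kb, 7 of the 19 CpGs (36.8%) were under 90%, against 8.44% for all genes. In the first and second kb 0 of the 7 collagen CpGs were under 90%, against 29.4% and 26% for all genes. Between 5 and 20 kb it was 2.5% against 6.65%, and beyond 20 kb 7.67% against 5.61%. The 19 CpGs between 2 and 5 kb come from 5 genes and the 7 in the first 2 kb from 2 genes, so the shares describe these genes, and no test was made.

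**Figure D3:**
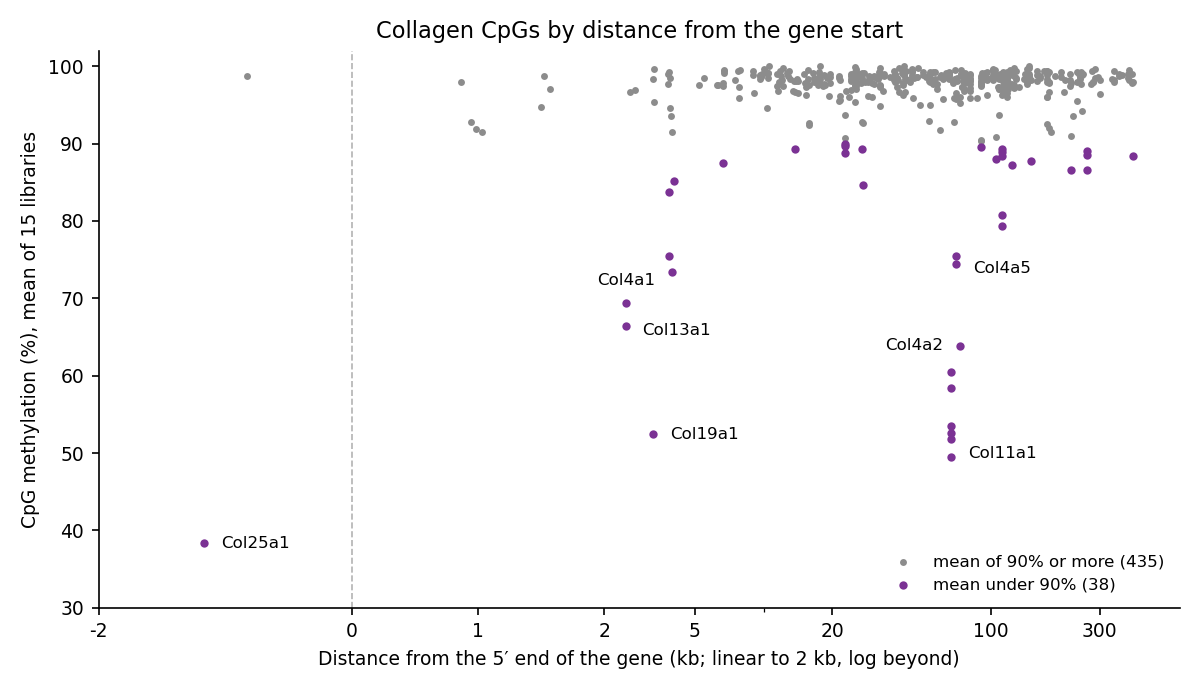
Mean methylation in percent over 15 libraries of each of 473 collagen CpGs against distance in kb from the 5′ end of its gene (linear to 2 kb, logarithmic beyond, vertical axis from 30%); purple points have a mean under 90%. Most points lie beyond 20 kb and near 100%, and the 38 low points belong to 14 of the 30 genes. The lowest include Col25a1 upstream of its start, Col13a1, Col19a1 and Col4a1 between 2 and 5 kb, and Col11a1, Col4a2 and Col4a5 further in.

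The question the design puts is whether PR and Control sperm differ at these genes. A quasi-binomial test was fitted to every CpG, every gene and every window of 1000 bp, with p-values adjusted by Benjamini-Hochberg over all units tested. Among the 35 collagen genes 0 passed an adjusted p of 0.05, where 0% of all 9223 tested genes did, and the smallest adjusted p was 0.998. At an unadjusted p under 0.05 there was 1 collagen gene (2.86%), against 2.99% of all genes. That gene was higher in PR, where the background was 1.63% for higher and 1.37% for lower. The median collagen difference was -0.127 points, against 0.00243 over all genes, with 15 genes higher and 20 lower in PR. In 30 of the 35 genes the difference was under 1 point in size. limma on the percentages called 0 genes and put 2 collagen genes (5.71%, against 4.74% of all genes) at an unadjusted p under 0.05.

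**Figure D4:**
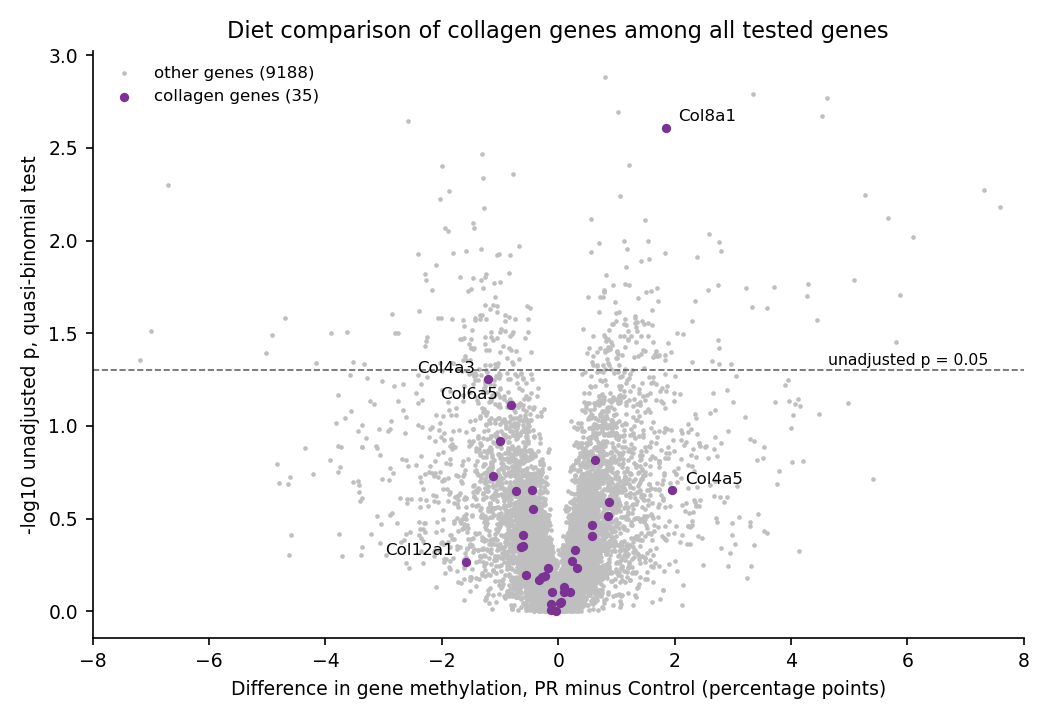
Difference in gene methylation, PR minus Control in percentage points, against -log10 of the unadjusted quasi-binomial p for 35 collagen genes (purple) and 9188 other genes (grey); the dashed line marks an unadjusted p of 0.05. 1 collagen gene, Col8a1, lies above the line, and the rest lie inside the cloud of all genes.

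For single CpGs the count was again 0 of 544, against 0% of all measured CpGs. At an unadjusted p under 0.05 there were 26 (4.78%, against 3.79% of all CpGs), 16 of them higher in PR (2.94% against 1.89%) and 10 lower (1.84% against 1.9%). By limma on the percentages that count was 33 (6.07%, against 4.56% of all CpGs). Of the 544 differences 256 were higher in PR, 283 lower and 5 equal, and the largest was 7.38 points in size. No collagen CpG or gene had Control and PR libraries that did not overlap, and of all measured CpGs 39 (0.0191%) did. There were 85 windows with at least 3 measured CpGs of which 1 or more was a collagen CpG. Among them 0 passed, against 0% of all windows, and 3 had an unadjusted quasi-binomial p under 0.05 (3.53% against 3.33%). Of these 1 was higher and 2 were lower, where the backgrounds were 1.64% and 1.69%, and limma counted 7 at that level (8.24%, against 4.75% of all windows).

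Col8a1 (chr16:57624256-57754737), a network-forming chain of vessel walls and of the membrane beneath the corneal endothelium, was the gene with the smallest p. Control libraries had 94.6% at the lowest, 97.7% at the median and 99.2% at the highest, with a mean of 97.3% ± 1.54 (SD, n = 7). PR libraries had 98.3%, 99.3% and 99.5%, with a mean of 99.2% ± 0.407 (SD, n = 8). All 8 PR libraries were above the Control mean and 5 were above the highest Control library, and the ranges overlapped. The difference between these means was 1.84 points, and the quasi-binomial test gave p = 0.00246 before and 0.998 after adjustment. That p and an SE of 0.505 points belong to the difference between counts pooled over the libraries of each diet. Each level rests on 162 to 322 counts summed over the 8 CpGs, and a read that covers several CpGs is counted at each. The 95% Wilson interval was 91.5% to 96.7% in the lowest Control library and 97.5% to 99.9% in the highest PR library. It covers counting error alone and treats these counts as independent, so with reads shared between CpGs it is too narrow. Leaving out 1 library at a time kept the difference between 1.40 and 2.16 points and the unadjusted quasi-binomial p between 0.000588 and 0.00673. Because the gene was picked by its p in these same libraries, that range adds no support.

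**Figure D5:**
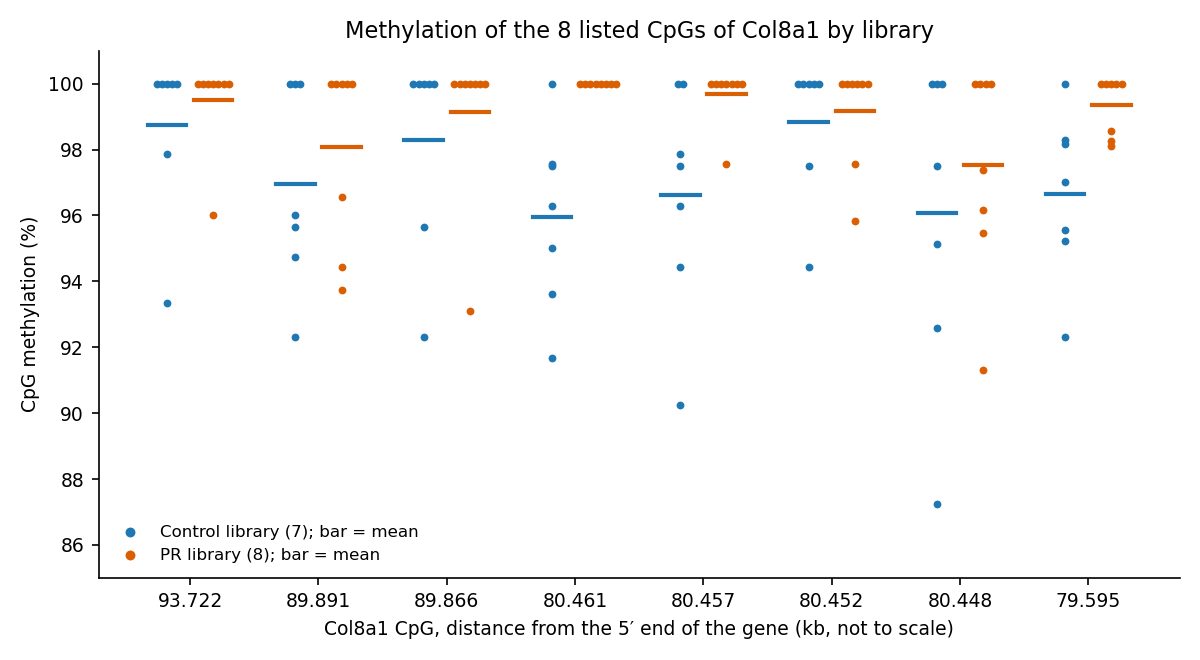
Methylation in percent of the 8 measured CpGs of Col8a1, in order of position and labelled by distance in kb from the gene's 5′ end; points are single libraries (7 Control, 8 PR), bars are diet means, and the vertical axis starts at 85%. At all 8 CpGs the PR mean is the higher one, and many libraries sit at 100% in both diets.

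The plot of single Col8a1 CpGs shows that the PR mean was higher at 8 of 8 positions. Of these, 3 had an unadjusted quasi-binomial p under 0.05, where 3.79% of all measured CpGs had such a p. The smallest was at chromosome 16, 57674276, where Control libraries ran from 91.7% to 100% with a mean of 95.9% ± 2.78 (SD, n = 7) and every PR library was at 100%. Its difference of 4.05 points had an unadjusted quasi-binomial p of 0.0024. The window that holds it (from 57674001) had 96.9% ± 1.96 (SD, n = 7) and 99.1% ± 1.05 (SD, n = 8) with an unadjusted p of 0.0154. Gene, window and CpG share the same reads and are not separate evidence. The gene was also picked out by its difference and p, so the direction and count at its CpGs add no support. The related chain Col8a2 had 95.5% in Control and 94.9% in PR, with an unadjusted p of 0.443 by the quasi-binomial test.

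None of the other genes reached an unadjusted p under 0.05 by the quasi-binomial test. Col4a5 had the largest difference, with 85.3%, 87.4% and 92.3% as lowest, median and highest in Control and 86.2%, 90.5% and 92.6% in PR. The difference was 1.96 points, with an unadjusted quasi-binomial p of 0.222. Col14a1 averaged 92.0% in Control and 92.9% in PR, a difference of 0.878 points (unadjusted quasi-binomial p = 0.256). For Col1a1 the difference was 0.861 points (unadjusted quasi-binomial p = 0.307), and without Control replicate 1 it was 0.344. In each of these genes the diets overlapped.

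On the lower side in PR, Col12a1 ran from 85.2% to 93.2% in Control and from 84.4% to 91.9% in PR. Its difference was -1.58 points with an unadjusted quasi-binomial p of 0.541. It was -0.54 points over the gene span alone, without the 2 CpGs in flanks, -0.83 with each CpG weighted equally, and between -2.37 and -1.02 with single libraries left out. Col4a3 ran from 97.6% through 98.4% to 99.6% in Control and from 95% through 97.2% to 98.4% in PR. Its difference was -1.21 points and its unadjusted p, 0.0562, lay on either side of 0.05 in other fits. The quasi-binomial p ran from 0.0254 to 0.130 when single libraries were left out. With limma the unadjusted p was 0.0317 and the adjusted p 0.997. Without PR replicate 4, which had the lowest level at 95%, the difference was -0.887 points. Col13a1 averaged 93.8% in Control and 92.7% in PR, a difference of -1.11 points (unadjusted quasi-binomial p = 0.186). From CpGs with at least 20 reads in every library the Col13a1 difference was -2.77 points (unadjusted quasi-binomial p = 0.0367), and with each CpG weighted equally it was -0.30. Col28a1, a collagen found around peripheral nerves, averaged 96.1% and 95.1%, a difference of -0.99 points (unadjusted quasi-binomial p = 0.120). All 4 transmembrane collagens had the lower mean in PR, as did 49.8% of all tested genes. Their differences lay between -1.11 points in Col13a1 and -0.13 in Col17a1, with no unadjusted quasi-binomial p under 0.05. In Col25a1 the sign depended on the setting.

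The CpGs with the smallest p sat close to full methylation in 1 diet. In Col14a1 (chromosome 15, 55520613) and Col6a6 (chromosome 9, 105764726) every PR library was at 100%, with Control means of 97.6% and 98.0%. In Col11a2 (chromosome 17, 34041654) the mean was 94.0% in Control and 99.5% in PR, and in Col2a1 (chromosome 15, 97977181) it was 94.9% and 98.7%. The reverse held in Col13a1 (chromosome 10, 61938449), Col28a1 (chromosome 6, 8186183), Col23a1 (chromosome 11, 51568699) and Col25a1 (chromosome 3, 130245769), where every Control library was at 100% and PR means were 98.4%, 96.5%, 96.1% and 96.9%. In Col4a3 (chromosome 1, 82637143) the mean was 99.5% in Control and 96.9% in PR. Unadjusted quasi-binomial p-values of these 9 CpGs lay between 0.0095 and 0.0276, at mean coverages of 20.4 to 60.7 reads. At such coverage a single unmethylated read moves a library by more than 1 point.

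Of the windows lower in PR, the smallest p was in Col6a5, a chain of the beaded filaments, in the window from 105961001 on chromosome 9. It ran from 91.3% to 97.5% in Control, with a mean of 95.1% ± 2.62 (SD, n = 7), and from 90.6% to 94.5% in PR, with a mean of 92.1% ± 1.31 (SD, n = 8), so that the diets overlapped. Its unadjusted quasi-binomial p was 0.0178. Over the whole gene the difference was -0.82 points (unadjusted quasi-binomial p = 0.0772). The other windows with the smallest p were, on the lower side, 1 in Col25a1 from 130245001 (99.5% in Control and 98.3% in PR) and 1 in Col23a1 from 51568001 (99.3% and 97.7%). On the higher side they were 1 in Col25a1 from 130360001 (97.4% and 99.1%) and 1 in Col11a2 from 34057001 (97.2% and 98.8%). Their unadjusted p-values by the quasi-binomial test ran from 0.0403 to 0.0882, and Col25a1 stood on both sides. The smallest adjusted p over collagen windows was 0.999 by the quasi-binomial test.

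Genes that make, process, bind and degrade collagen were read from a list of 60, of which 40 held a measured CpG and 34 were tested. Of these 18 were higher and 16 lower in PR, 0 passed an adjusted p of 0.05 and 0 had an unadjusted p under 0.05 by the quasi-binomial test, against 2.99% of all genes. The median difference was 0.179 points. With limma on the percentages 1 gene was at that level (2.94%, against 4.74% of all genes). By role, 9 of 13 enzymes and chaperones of biosynthesis, 5 of 9 processing and crosslinking enzymes and 3 of 4 fibril-binding proteins had the higher mean in PR, while 6 of 7 receptors had the lower one. Of all tested genes 50.2% were higher and 49.8% lower in PR, and the directions by role were not tested. Mia3, which loads procollagen into transport carriers, was the lowest of the list at 75.7% ± 6.62 (SD, n = 7) in Control libraries and 73.1% ± 4.26 (SD, n = 8) in PR, with an unadjusted quasi-binomial p of 0.553. Tnxb, which encodes a tenascin that binds fibrils, had 86.9% in Control and 88.5% in PR (unadjusted quasi-binomial p = 0.152). Sparc, a matrix protein that binds collagen, had 96.4% and 97.7% (unadjusted quasi-binomial p = 0.0833). Mmp14, a membrane-bound collagenase, was the only tested gene of its role and had 87.0% and 85.7% (unadjusted quasi-binomial p = 0.416). In all 4 genes the libraries of the diets overlapped.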

How the data were processed

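The deposited files give, for each CpG position, counts of methylated reads and counts of all reads as raw values. Bismark 0.7.12, Bowtie2 2.1.0 and build mm10 are named per the submitters' processing notes, with no roles, and filters and strand merging are likewise not given in the sources used here. Libraries were grouped by the diet label and numbered in accession order within a diet. Collagen members, gene classes and the pathway list were chosen with earlier results of these data known. Methylation is methylated over total counts, pooled over a gene's CpGs for gene levels, and class means average CpGs. Differences are between diet means of library levels, each library weighted equally. Quasi-binomial p-values and the SE come from counts pooled over the libraries of a diet, so they need not match the printed difference. Units needed at least 3 CpGs and a coverage of at least 10. Diets were compared with a quasi-binomial logistic model fitted to all CpGs, genes and 1 kb windows (13 residual degrees of freedom, dispersion of at least 1, Benjamini-Hochberg adjustment at 0.05), in Python 3.11.15 with NumPy 2.4.6 and SciPy 1.17.1. The test was tried on simulated data. limma 3.58.1 (R 4.3.3), run on percentages and also on logits after adding 1 to each count, was an alternative, with other coverage and CpG minimums, windows of 500 bp, gene spans alone, summed consecutive title numbers and libraries left out in turn.

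Named are the collagen genes with the 4 largest differences in each direction, the 4 lowest levels, the 3 highest CpG numbers and the 3 largest dispersions. Named CpGs and windows are the 5 and the 3 smallest p in each direction, 1 per gene, and CpGs under 50%. Pathway genes are the 2 largest differences in each direction. Other genes are named to describe their class. Median coverage of a collagen CpG was 26 to 44 reads, and intervals cover counting error only. No molecular identifiers are given for the reads, so copies of 1 molecule may be counted separately. Intervals and dispersions treat counts at neighbouring CpGs as independent, although they can come from the same reads.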

Additional observations from a re-analysis of the deposited data

Results flagged for a closer look

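72 sets of libraries, each of 1 diet at 1 collagen measure, were searched for a library far from its own diet, and 5 were found. A chance rate of about 1 in 20 such sets holds for normally distributed values and need not hold near 100%. Sets with every library at 100% were counted but could not be flagged. In the group of 3 CpGs in Col4a2 (chromosome 8, from 11385699) Control replicate 4 had 91.4%, while the next Control library had 82.2% and the lowest 77.4%. In the deeper group of 4 CpGs in Col4a1 (from 11201686) Control replicate 1 had 87.5%, the next library 84.2% and the lowest 82.1%. Control replicate 4 also had the highest count over collagen CpGs, 26076, against 19705 in the next and 15998 in the lowest Control library. For the Col4a3 gene level PR replicate 4 had 95%, the next library 97% and the highest 98.4%. At the Col11a2 CpG on chromosome 17 (34041654) PR replicate 6 had 95.7%, while the other PR libraries were at 100%.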

How the results depend on the processing

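Over 85 alternative settings of the 4 counts (collagen CpGs, genes, windows and pathway genes), 0 units passed an adjusted p of 0.05, where the adjusted p-values leave little room for a call. Counts at an unadjusted p under 0.05 by the quasi-binomial test did move. At a coverage minimum of 20 fewer units were tested, so these counts cannot be compared as shares. Shares over all units at these settings were not worked out. For collagen CpGs the count of 26 became 9 with consecutive title numbers summed and 11 of the 218 left at a coverage minimum of 20. For genes 1 became 3 at that minimum, and 1 or 2 with single libraries left out. For windows 3 became 1 at that minimum and 2 to 5 with single libraries left out (5 without PR replicate 2, 3 or 6). Of the 12 named genes 9 kept the sign of their difference in every setting run. The 3 that changed sign, Col11a1, Col25a1 and Col24a1, were not named for their differences. Genes named for large differences are by that choice less likely to change sign, so the count adds no support. Col8a1, Col4a5 and Col1a1 kept fewer than 3 CpGs at a coverage minimum of 20, which gave them no value. With title numbers summed, Col1a1 was 0.230 points higher in PR and Col4a5 1.18. Col11a1 was 2.42 points higher in PR as a mean of CpG percentages and ran from -1.20 to 1.28 points with 1 library left out at a time. Col25a1 was 0.112 points higher in PR with consecutive title numbers summed (3 Control and 4 PR runs) and ran from -0.30 to 0.00798 with 1 library left out. Col24a1 ran from -0.45 to 0.0714 in the same way. The causes were not tested, beyond the weighting of reads given for Col11a1. The difference of collagen means ran from -0.0997 to 0.0312 points with single libraries left out and was -0.165 from pooled counts. The within-diet SD of single libraries, with each CpG weighted equally, was 0.216, which is not the error of a difference between diet means. No paired analysis was possible because the labels give the diets no shared replicate numbers. Depth limits single CpGs: 218 of the 544 had at least 20 reads in every library.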
